A study of Mus musculus with 20 samples.

Results

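Bladders of CKO mice treated with palbociclib and CDDP were compared with tumour bladders of CKO mice that had been inoculated with Adeno-Cre only. The samples were chosen by their titles: 3 treated bladders (PALBO1 to PALBO3) and 7 tumour bladders (TUMOR1 to TUMOR7), 10 of the 20 samples in the series, with the sample titled PALBO-MET left out. All groups, the 5 normal bladders included, came from CKO mice on the FVB/N background, which carry Rb f/f and other floxed alleles and p107-/-, so the loss of p107 (Rbl1) was shared by treated and tumour bladders. Both groups received an adenovirus coding for Cre recombinase into the bladder, and the treated mice were also given palbociclib, at 150 mg/kg intraperitoneally each day for 28 days, and CDDP at 6 mg/kg weekly. The labels give no age, no sex, no time of collection and no vehicle for the tumour bladders, and do not say whether arrays stand for different animals, so the tests measure the spread between these samples, which may be technical. Cre from a virus acts only in the cells that take it up, and each sample is a whole bladder, with urothelium, muscle wall and other cells mixed. In such bulk RNA, fewer cells of a type and less RNA per cell cannot be told apart. RNA came from an FFPE kit and was measured on Affymetrix whole-transcript arrays, and all levels below are log2 values.

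Palbociclib blocks the kinases Cdk4 and Cdk6, which with D-type cyclins phosphorylate Rb and its relatives p107 and p130. Unphosphorylated Rb holds E2F factors silent, and freed E2F switches on genes of DNA replication, after which the MuvB complex with B-Myb and FoxM1 switches on genes of mitosis. CDDP (cisplatin) enters cells in part through copper transporters, is bound by thiols such as glutathione and metallothionein, and forms DNA crosslinks that nucleotide excision repair and the Fanconi pathway remove. In the bladder, uroplakins make up the plaques on the surface of the luminal urothelium, which lies on basal cells rich in Krt5 and is surrounded by the smooth muscle of the wall.

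The comparison covered 30142 genes, and limma called 0 of them at an adjusted p under 0.05 (0.0%), with a smallest adjusted p of 1.0. An unadjusted p under 0.05 was reached by 103 genes (0.342%), where chance alone gives 1507, and 55 of them were higher in treated bladders (53.4%, or 81.0% of 100 genes with arrays centred on their medians). With array weights 2511 genes reached it, and still 0 passed. A count so far under the chance number was not explained by a test. With it, 0 passing genes does not show that the groups are alike. The 3 treated and 7 tumour values did not overlap in 39 genes (0.129%), of which 22 were higher (0.073%) and 17 lower (0.0564%) in treated bladders. Values of 3 arrays can also lie apart from those of 7 by chance. No chance number was computed for this count, so a lack of overlap is not evidence of a difference. The median difference over all genes was -0.02, and 42.6% of genes were higher in treated bladders; with arrays centred these became 0.04 and 62.2%. None of the genes below passed the test, and every difference is a description with its spread. Of the 7 tumour arrays, numbers 3, 4 and 5 stood apart together with 5 arrays of other groups: their spread over dim rows was above 0.3, and over bright rows their deviations from the row means correlated with no other array above r = 0.25. No treated array was of this kind, and list medians without these 3 arrays are given where they differed by over 1.5 times or turned. Each list below was drawn up with earlier results of these samples known. Its counts are to be read beside the 42.6% and the -0.02 of all genes, but these values depended on brightness. With dim genes left out, 52.6% of the remaining 19898 genes were higher and their median difference was 0.008. Dim genes were thus lower more often than the others. The share of higher genes among dim genes alone was not computed, but it must lie under 42.6%. Lists with many dim members thus look more one-sided towards lower beside the 42.6% than they would beside dim genes.

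The pocket proteins named in the genotype were measured first. Rb1 was at 6.23, 5.82 and 6.17 in treated bladders and 5.44 to 6.45 in tumour bladders, and Rbl1, which encodes p107, at 6.02, 6.24 and 7.65 against 6.15 to 7.13. All arrays gave a signal for Rbl1 although all mice carried p107-/-; whether its array row covers the deleted part is not analysed here, so it checks no label. Rbl2 (p130), which no listed allele removes, was at 6.36, 6.46 and 6.47 against 5.90 to 6.79.

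The kinases that palbociclib inhibits did not separate the groups. Cdk4 was at 6.63, 6.40 and 8.18 in treated bladders 1, 2 and 3, and in tumour bladders its lowest level was 6.10, the median 6.91 and the highest 8.16. Treated bladder 3 held the highest level of all 10 arrays, next to tumour bladder 6, while treated bladders 1 and 2 lay below every tumour bladder but number 1. The group difference was 0.10 ± 0.37 (SE), and it turned to -0.46 without treated bladder 3 and to -0.05 without tumour bladder 1. Cdk6 was at 5.52, 5.47 and 6.15 against a tumour range of 5.24 to 6.45. Cdkn2a, whose product p16 inhibits both kinases, was at 5.94, 5.95 and 6.55, and the tumour bladders ran from 5.80 (number 7) over a median of 6.64 to 7.01. Tumour bladders 1, 2, 5 and 6 lay above all treated arrays, and the difference of -0.45 ± 0.25 (SE) stayed between -0.65 and -0.35 with any 1 array left out.

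Downstream of the kinases, Ccne2, a cyclin of the G1 to S step and an E2F target, was at 5.51, 5.37 and 6.89 in treated bladders and at 5.53 to 6.82 in tumour bladders. Treated bladders 1 and 2 were thus below all 7 tumour bladders and treated bladder 3 above all 7. Ccne1, the other cyclin E, was at 5.37, 5.5 and 6.53 against 5.30 to 6.34. E2f1, an activating E2F, was at 5.21, 5.41 and 5.94 against 5.27 to 5.87, and E2f8, a repressing E2F, at 5.58, 5.62 and 6.29 against 5.43 to 6.12. For all 4 genes the highest of the 10 arrays was treated bladder 3. Of the 28 measured genes of the Cdk4/6 and Rb axis, 9 were higher and 19 lower, with a median difference of -0.05 that turned to 0.01 with arrays centred on their medians and to at most 0.03 without treated bladder 1 or 2. It was -0.26 without treated bladder 3, -0.01 without tumour bladder 6 and -0.17 with array weights.

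Genes of DNA replication showed the same split among the treated bladders. The mean level of 30 measured S-phase genes was 5.52, 5.54 and 6.43 in treated bladders 1, 2 and 3, and in tumour bladders it ran from 5.48 (number 7) over 5.86 to 6.44 (number 6). Treated bladders 1 and 2 sat at the low end of the tumour range and treated bladder 3 at its high end. All 30 genes had a lower mean in treated bladders, but by a median of only -0.10. It became -0.37 without treated bladder 3, -0.16 without tumour bladder 7, -0.04 without tumour bladder 6 and -0.15 without tumour bladders 3, 4 and 5. It turned to at most 0.04 without treated bladder 1 or 2. With array weights it was -0.26, and with arrays centred -0.04. Pcna, the sliding clamp of the replication fork, was at 7.05, 6.79 and 9.77, against a tumour range of 7.28 to 9.23: treated bladders 1 and 2 were below all tumour bladders and treated bladder 3 above them all. Tyms, which makes thymidylate, was split in the same way, at 6.16, 6.39 and 8.13 against 6.58 to 7.98. Mcm2, a subunit of the replicative helicase, was at 5.06, 5.04 and 6.17 against 5.06 to 6.14, and its partner Mcm5 at 5.51, 5.38 and 6.49 against 5.39 to 6.41. Rrm2, a subunit of ribonucleotide reductase, was at 4.66, 4.72 and 5.73, where tumour bladders held 4.72 to 5.67. Tk1, a thymidine kinase, did not follow this: its 5.49, 5.76 and 6.05 lay inside the tumour range of 5.35 to 6.44.

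As a list, genes of G2 and M phase were split in the same way, but not every single gene was. Mki67, which encodes the proliferation antigen Ki-67, was at 5.39, 5.15 and 8.67 in treated bladders. In tumour bladders its lowest level was 5.25 (number 7), the median 6.65 and the highest 8.25 (number 6). Treated bladder 3 was thus the highest of the 10 arrays, and treated bladder 2 the lowest. The difference of -0.27 ± 0.76 (SE) became -1.40 without treated bladder 3 and turned to at most 0.36 without treated bladder 1 or 2. Top2a, the topoisomerase that untangles sister chromatids, was at 5.40, 5.44 and 7.93 against a tumour range of 5.35 to 8.16. Aurka, a spindle kinase, was at 6.04, 6.10 and 6.90 against 5.90 to 7.11, and treated bladders 1 and 2 lay above tumour bladders 4, 5 and 7. Cdk1, the mitotic kinase, was at 5.22, 4.94 and 5.87 against 4.93 to 6.19, with treated bladder 1 above tumour bladders 1, 5 and 7. Birc5 (survivin) was at 4.51, 4.81 and 5.16 against 4.70 to 5.59, with treated bladder 2 near the tumour median of 4.82. Over 33 measured G2/M genes the list mean was 5.29, 5.39 and 6.37 in treated bladders and 5.23 to 6.44 in tumour bladders. The mean was lower in treated bladders for 30 genes and higher for 3, with a median of -0.12. That median was -0.39 without treated bladder 3, -0.21 without tumour bladder 7 and -0.02 without tumour bladder 6. It was -0.01 without treated bladder 2, 0.06 without treated bladder 1, -0.35 with array weights and -0.06 with arrays centred. On normal bladders 1 and 2 the same list was at 5.08 and 5.12, below every treated array, while normal bladders 4, 5 and 6, which are among the arrays that stood apart, were at 5.68, 5.68 and 5.77, above treated bladders 1 and 2.

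**Figure D1:**
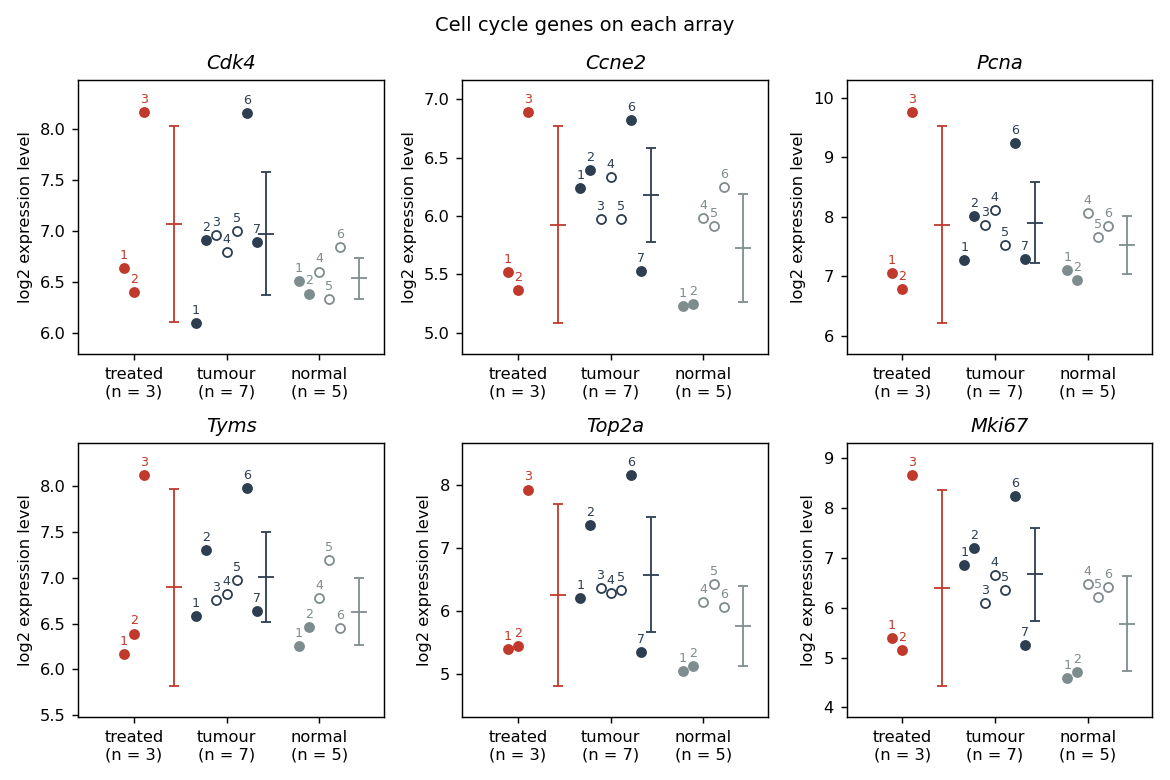
Level of 6 cell cycle genes (vertical axis, log2 expression level) on each array of treated, tumour and normal bladders (horizontal axis). Points carry replicate numbers, open symbols mark the arrays that stood apart, and the mean ± SD is beside each group. Treated bladder 3 lies at the top of every panel or, for Top2a, just under tumour bladder 6, and treated bladders 1 and 2 lie near tumour bladder 7 or below it.

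The promoters of 4 of these genes are shown because the genes belong to the set that E2F and MuvB control and were highest or next to highest in treated bladder 3. Each line is the 250 bases before the gene's start in RefSeq on GRCm38.p6, read 5′ to 3′ on the gene's strand: Mki67 chr7:135716380-135716629 (minus strand), Top2a chr11:99024190-99024439 (minus strand), Cdk1 chr10:69352913-69353162 (minus strand), Mcm5 chr8:75109259-75109508 (plus strand). Capitals mark, on either strand, the E2F letters TTTGGCGC, TTTCCCGC, TTTGCCGC or TTTCGCGC, the CHR element of MuvB targets (TTTGAA or TTCGAA) and the CCAAT box that NF-Y binds; in Mcm5, E2F matches of opposite strands overlap and form a single run.
Mki67: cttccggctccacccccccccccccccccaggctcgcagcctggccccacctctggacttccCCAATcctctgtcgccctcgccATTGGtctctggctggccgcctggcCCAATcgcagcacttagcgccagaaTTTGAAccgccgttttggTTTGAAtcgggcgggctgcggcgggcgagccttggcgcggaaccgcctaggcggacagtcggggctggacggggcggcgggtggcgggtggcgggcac
Top2a: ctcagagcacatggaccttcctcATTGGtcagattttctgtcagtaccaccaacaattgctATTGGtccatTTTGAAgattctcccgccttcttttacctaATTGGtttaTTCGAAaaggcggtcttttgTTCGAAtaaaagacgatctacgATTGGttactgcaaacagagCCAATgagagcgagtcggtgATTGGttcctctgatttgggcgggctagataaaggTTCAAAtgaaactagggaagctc
Cdk1: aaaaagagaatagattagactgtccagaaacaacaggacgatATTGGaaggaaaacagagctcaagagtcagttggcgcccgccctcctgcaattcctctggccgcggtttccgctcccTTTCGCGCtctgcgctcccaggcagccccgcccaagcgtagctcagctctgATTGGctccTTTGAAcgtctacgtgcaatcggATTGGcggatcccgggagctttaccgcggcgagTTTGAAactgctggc
Mcm5: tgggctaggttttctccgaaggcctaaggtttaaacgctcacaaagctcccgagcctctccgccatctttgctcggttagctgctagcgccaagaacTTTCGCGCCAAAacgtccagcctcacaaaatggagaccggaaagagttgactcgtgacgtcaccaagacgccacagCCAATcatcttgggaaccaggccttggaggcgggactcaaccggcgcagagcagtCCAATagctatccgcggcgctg
E2F letters stood in 8 of 31 windows of S-phase genes (25.81%), in 1 of 28 windows of G2/M genes (3.57%) and in 1.86% of all 32851 windows of this length. CHR letters stood in 16.13% of S-phase, 39.29% of G2/M and 17.15% of all windows, and CCAAT in 58.06%, 78.57% and 33.85%. A window was found for 25 of the S-phase and 26 of the G2/M genes, some of them with several starts. The windows of Mki67 and Top2a held CHR letters but no E2F letters, that of Mcm5 held E2F but no CHR letters, and that of Cdk1 held both. A match is a description of the letters and not a site.

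Targets of p53, which a platinum lesion can switch on, lay close together in the groups. Of 26 measured targets 15 were higher and 11 lower, with a median of 0.03. It turned to -0.01 without treated bladder 3 and was 0.11 without treated bladder 2. It was 0.01 without treated bladder 1 or tumour bladder 1, 0.003 without tumour bladder 5 and 0.02 without tumour bladders 3, 4 and 5. With arrays centred it was 0.09, and with quantile normalisation 0.06. Cdkn1a, whose product p21 halts the cycle, was at 6.88, 6.26 and 7.17 in treated bladders and at 5.90 to 7.10 in tumour bladders, a difference of 0.24 ± 0.24 (SE). Mdm2, the ligase that degrades p53, was at 6.07, 5.96 and 6.25 against 5.89 to 6.28, and Bbc3, the death gene PUMA, at 5.29, 5.38 and 5.17 against 5.09 to 5.46. Ccng1, a cyclin that p53 induces, stood out in treated bladder 1 alone, at 8.21 against 6.24 and 6.40 in the other treated arrays and 5.55 to 7.79 in tumour bladders, and its difference of 0.39 turned to -0.24 without that array. Eda2r, a death receptor among the p53 targets, was at 5.92 on the same array, against 5.34 and 5.28 on the others and up to 5.87 in tumour bladders.

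Among the genes that carry platinum in and out of cells, Slc31a1, the copper transporter that admits cisplatin, was at 6.14, 6.16 and 6.54 in treated bladders and 6.07 to 6.78 in tumour bladders. The copper exporter Atp7a was at 5.76, 5.72 and 6.12 against 5.28 to 6.29. Its relative Atp7b was at 4.77, 4.91 and 4.77, under the median of all rows on each array. Over 17 measured transporters 8 were higher and 9 lower, with a median of -0.0001, which turned under several settings (0.06 with arrays centred, 0.002 without tumour bladders 3, 4 and 5, and from -0.02 without treated bladder 3 to 0.06 without treated bladder 2). The thiol genes were more varied. Mt1 and Mt2, the metallothioneins that bind metals through cysteines, were highest in treated bladder 1, at 8.70 and 6.23, and lower in treated bladders 2 and 3, at 7.04 and 7.18 for Mt1 and 4.69 and 4.79 for Mt2, where tumour bladders ran from 6.47 to 8.50 and from 4.41 to 5.93.

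Gstm1, a glutathione transferase, held the largest difference of the detoxification genes. It was at 10.25, 10.67 and 11.44 in treated bladders, and in tumour bladders at 5.55 (number 6), 6.13 (number 2), 7.90, 8.66, 8.82, 9.39 and 13.48 (number 7). All treated arrays were above 6 of the 7 tumour arrays and below tumour bladder 7. Those 6 include tumour bladders 3, 4 and 5, which stood apart. The difference was 2.23 ± 1.33 (SE) and ranged from 1.72 to 3.05 with any 1 array left out. Normal bladders 1 and 2 held 11.69 and 11.98, above the treated arrays, and normal bladders 4, 5 and 6, of the kind that stood apart, held 9.10, 9.49 and 8.64, below them. Gclc, the enzyme that limits glutathione synthesis, was at 6.90, 6.59 and 7.41 against 6.43 to 7.55, Nqo1, a quinone reductase, at 5.30, 5.21 and 6.07 against 4.62 to 6.98, and Hmox1, a heme oxygenase, at 5.55, 5.45 and 5.73 against 5.49 to 5.99. Of 31 measured thiol and antioxidant genes 22 were higher and 9 lower, with a median of 0.06, which was 0.0003 without treated bladder 1 and 0.22 without treated bladder 2. It was 0.03 without treated bladder 3 or tumour bladder 1, 0.10 and 0.12 without tumour bladders 6 and 7, and 0.13 with array weights.

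Repair genes for platinum lesions differed little. Ercc1, part of the nuclease that cuts beside the adduct, was at 5.88, 5.93 and 5.82 against 5.67 to 6.06, and its partner Ercc4 at 5.24, 5.14 and 5.34 against 4.93 to 5.23. Xpa, which verifies the damage, was at 6.84, 6.73 and 7.33 against 6.12 to 7.52. Fancd2, of the crosslink pathway, was at 5.21, 5.17 and 5.27 against 5.22 to 5.37, and Brca1 at 5.23, 5.37 and 5.70 against 5.06 to 5.96. Of 38 measured repair genes 18 were higher and 20 lower, with a median of -0.03 that turned to 0.03 with arrays centred. It also turned without treated bladder 1 (0.04), treated bladder 2 (0.02), tumour bladder 2 (0.003) or tumour bladder 6 (0.01), and was -0.10 without treated bladder 3. Of 23 apoptosis genes 10 were higher and 13 lower (median -0.01, 0.05 with arrays centred and -0.02 without tumour bladders 3, 4 and 5). That median was -0.11 without treated bladder 3, 0.04 without treated bladder 2 and -0.05 with array weights. Mcl1, a guard of mitochondria, was at 6.25, 5.74 and 6.27 against 5.82 to 6.56, and Bcl2, of the same family, at 6.22, 6.07 and 6.70 against 6.18 to 6.73.

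The luminal urothelium gave some of the widest differences. Upk1b, a uroplakin, was at 11.93, 12.27 and 13.30 in treated bladders. Tumour bladders held 9.31, 9.58, 10.72, 10.64, 10.73, 6.49 and 14.41 in the order of their numbers, so that all treated arrays were above 6 of 7 tumour arrays and below tumour bladder 7. Numbers 3, 4 and 5 among those 6 are the tumour arrays that stood apart. The difference of 2.23 ± 1.18 (SE) corresponds to 4.69-fold and stayed between 1.60 and 2.92 with any 1 array left out. Upk1a was at 9.20, 9.91 and 10.89 against 7.84, 6.01, 8.31, 8.14, 8.60, 5.48 and 14.18, again between tumour bladder 7 and the other 6. Upk2 was at 6.91, 6.66 and 6.92, above the same 6 tumour bladders (4.79 to 6.38) and below tumour bladder 7 at 9.55. Upk3a was at 7.49, 8.82 and 9.71 against 4.73 to 7.76 on those 6 and 12.39 on tumour bladder 7. Normal bladders 1 and 2 held Upk1b at 13.15 and 13.31 and Upk1a at 11.01 and 12.28, close to treated bladder 3 for Upk1b and above all treated arrays for Upk1a. Normal bladders 4, 5 and 6 held Upk1b at 10.06, 10.78 and 9.995 and Upk1a at 8.07, 8.34 and 8.04, below every treated array.

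Factors that set luminal identity differed less than the uroplakins. Pparg, a nuclear receptor of the luminal program, was at 6.01, 6.28 and 7.09 against 5.01 to 7.26, and Foxa1 at 3.97, 4.12 and 4.72 against 3.86 to 4.76, low on all arrays. Krt20, a keratin of umbrella cells, was at 5.25, 5.20 and 5.48 against 4.82 to 6.42. Of 25 measured luminal genes 23 were higher in treated bladders and 2 lower. The list mean was 6.35, 6.54 and 7.26 in treated bladders, and 6.31, 5.59, 6.10, 6.13, 6.13, 5.34 and 8.10 in tumour bladders 1 to 7. The median of 0.35 was 0.17 without tumour bladders 3, 4 and 5, 0.10 with array weights and 0.04 without treated bladder 3. It was 0.22 without tumour bladder 6 and 0.53 without tumour bladder 7.

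Basal and squamous genes were high in treated bladder 3 rather than in the group. Krt5, the keratin of basal cells, was at 7.46, 6.90 and 8.97 in treated bladders and at 5.54 to 9.38 in tumour bladders. Trp63, the basal factor p63, was at 5.94, 5.37 and 6.23 against 5.12 to 6.50, and Krt14, another basal keratin, at 5.21, 5.13 and 5.99 against 5.20 to 6.09. Of 21 basal and squamous genes 14 were higher and 7 lower. Their median of 0.05 turned to -0.09 without treated bladder 3 and to -0.01 without tumour bladders 3, 4 and 5; it was 0.09 without treated bladder 1 or tumour bladder 1, 0.12 without treated bladder 2 and 0.01 without tumour bladder 6. Cdh1, the cadherin that joins epithelial cells, was at 6.28, 6.50 and 8.20 against 5.93 to 8.12. The junction list had 18 of 21 genes higher, with a median of 0.10 that turned to -0.10 without treated bladder 3 and to -0.02 with array weights, and was 0.04 without tumour bladders 3, 4 and 5.

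The smooth muscle of the wall was split in the same order as Upk1a, Upk1b and Upk3a. Acta2, the smooth muscle actin, was at 7.45, 8.93 and 10.84 in treated bladders 1, 2 and 3, and at 5.76, 6.51, 7.33, 7.79, 7.78, 5.66 and 12.16 in tumour bladders 1 to 7. Treated bladders 2 and 3 were above 6 of the tumour arrays, and treated bladder 1 fell among the near-average arrays. Myh11, its myosin heavy chain, was at 6.85, 8.99 and 9.51 against 5.31 to 7.30 on tumour bladders 1 to 6 and 11.63 on number 7. Actg2, the enteric actin, was at 6.73, 7.73 and 10.52 against 5.36 to 7.35 and 11.55, and Cnn1, calponin, at 6.23, 7.44 and 7.78 against 5.52 to 6.62 and 9.33. Desmin (Des), which is also a gene of skeletal muscle, was highest instead in treated bladder 1, at 7.93 against 6.37 and 6.88. All 23 measured smooth muscle genes were higher in treated bladders, with a median of 0.57, which was 0.02 with array weights. It was 0.94 without tumour bladder 7 and 0.33 without treated bladder 3, and without the latter the difference of Actg2 went from 1.16 to 0.06.

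**Figure D2:**
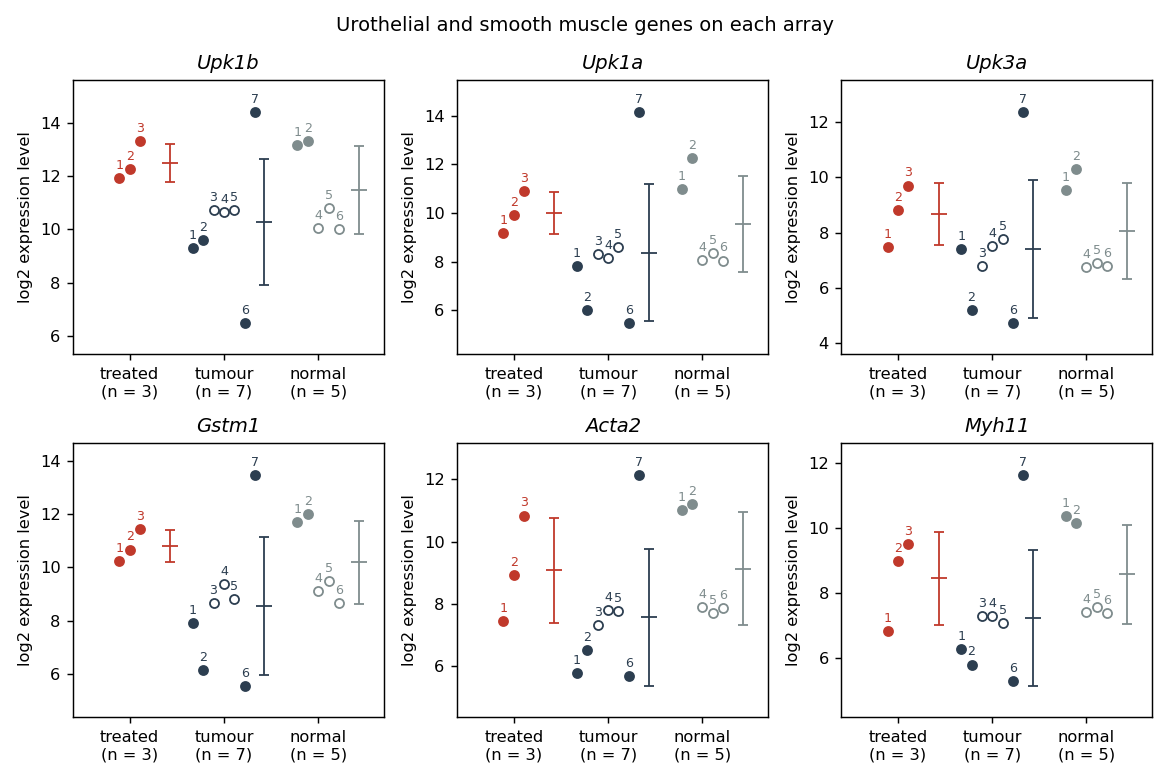
Level of 3 uroplakins, Gstm1 and 2 smooth muscle genes (vertical axis, log2 expression level) on each array of treated, tumour and normal bladders. Points carry replicate numbers, open symbols mark the arrays that stood apart, and the mean ± SD is beside each group. In each panel the treated arrays lie below tumour bladder 7, and for Upk1b, Upk1a and Gstm1 all of them lie above tumour bladders 1 to 6.

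Fibroblast and matrix genes were lower in treated bladders for 18 of 22 measured members, with a median of -0.14. That median was -0.06 without tumour bladder 6, -0.07 without treated bladder 3 and -0.21 without tumour bladder 1. It was -0.08 with arrays centred and -0.02 with array weights. Col1a1, the main fibrillar collagen, was at 7.69, 7.0 and 7.45 in treated bladders and at 6.86 to 9.66 in tumour bladders, and Col3a1 at 7.14, 6.65 and 6.82 against 6.47 to 8.37. The high end of both was tumour bladder 6, followed by tumour bladder 2. Postn (periostin), a matrix protein of activated fibroblasts, was at 7.66, 8.05 and 8.06, while tumour bladder 6 held 12.59 and the other tumour arrays 6.28 to 7.96. Without tumour bladder 6 the difference of Postn turned from -0.34 to 0.38. Dcn (decorin) ran the other way, at 8.88, 8.92 and 9.17 against a tumour median of 8.51 and a range of 6.17 to 9.78. Of 18 genes of mesenchymal transition 4 were higher and 14 lower, and their median of -0.08 turned to at most 0.08 without tumour bladder 6 or treated bladder 2 and was -0.17 without tumour bladders 3, 4 and 5 or without tumour bladder 1 alone, -0.15 and -0.19 without treated bladders 1 and 3, and -0.03 with array weights. Vim (vimentin) was at 6.21, 5.98 and 5.87 against 5.28 to 7.41. Of 19 endothelial genes 10 were higher and 9 lower with a median of 0.002 that was negative without each of 8 arrays in turn (-0.10 without treated bladder 1), 0.06 without treated bladder 3 and 0.13 with array weights. Pecam1, an adhesion molecule of vessels, was at 6.80, 6.25 and 6.24 against 6.27 to 6.66.

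Neutrophil genes had some of the largest single values of the comparison. S100a8 and S100a9 encode the subunits of calprotectin, a protein stored in neutrophils. S100a8 was at 8.71, 5.16 and 4.87 in treated bladders and at 4.76, 7.78, 7.10, 8.47, 6.04, 13.56 and 9.30 in tumour bladders 1 to 7, and S100a9 at 10.05, 6.69 and 5.30 against 5.99, 10.15, 7.72, 8.08, 8.34, 12.81 and 10.19. Treated bladder 1 thus lay among the tumour arrays, treated bladders 2 and 3 near or below tumour bladder 1 apart from the S100a9 of treated bladder 2. The differences were -1.89 ± 1.36 and -1.69 ± 1.22 (SE); without tumour bladder 6 they were -0.99 and -1.07. Without treated bladder 1 they were -3.13 and -3.04, and without treated bladder 3 that of S100a9 was -0.67. Of 19 measured neutrophil genes 18 were lower and 1 higher, with a median of -0.23 that was -0.12 without treated bladder 3, -0.40 without tumour bladders 3, 4 and 5 and -0.06 with array weights. Cxcr2, a chemokine receptor of neutrophils, was at 6.01, 5.43 and 5.47 against 5.62 to 7.37, and Csf3r, the receptor of their growth factor, at 5.49, 5.51 and 5.11 against 5.18 to 6.95.

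Macrophage and monocyte genes were lower in treated bladders for 21 of 22 measured members. Their list mean was 6.39, 6.13 and 5.79 in treated bladders and 5.85, 6.75, 6.50, 6.48, 6.46, 7.18 and 6.42 in tumour bladders 1 to 7, so that treated bladders 1 and 2 were below all tumour arrays but number 1, and treated bladder 3 below all 7. The median of -0.38 was -0.18 without treated bladder 3, -0.52 without treated bladder 1 and -0.15 with array weights. Lyz2, a lysozyme of myeloid cells, was at 9.11, 8.54 and 8.44 against 7.21 to 10.80, and Mrc1, the mannose receptor, at 7.01, 6.88 and 6.59, below 6 of the 7 tumour bladders (7.08 to 8.19) and above tumour bladder 1 at 6.01. Csf1r, the receptor that macrophages need to survive, was at 6.10, 5.96 and 5.56 against 5.65 to 6.62. C1qa, of the complement C1q complex, was at 6.08, 5.72 and 5.26 against 5.67 to 6.49. The order of treated bladders 1, 2 and 3 for these genes, from high to low, was opposite to their order for Acta2, Upk1a and Upk1b.

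Inflammatory ligands were lower for 22 of 27 measured members, with a median of -0.21 that was -0.10 without tumour bladder 6, -0.11 without treated bladder 3 and -0.06 with array weights. Tumour bladder 6 was the highest array for Ptgs2, Il1b, Cxcl2 and Ccl2. Ptgs2, the inducible cyclooxygenase, was at 11.71 there, at 5.46 to 6.28 on the other tumour arrays and at 6.11, 6.75 and 6.04 in treated bladders. Without that array the difference of Ptgs2 turned from -0.41 to 0.42. Il1b, a cytokine of myeloid cells, was at 5.71, 5.33 and 4.92 against 4.90 to 7.60, and Cxcl2, a chemokine that draws neutrophils, at 5.89, 5.03 and 4.55 against 4.87 to 6.68; its difference of -0.20 turned without tumour bladder 6 or treated bladder 3, to at most 0.10. Cxcl5, of the same chemokine family, was at 5.54, 5.47 and 5.35 against 5.23 to 7.10. Ccl2, which attracts monocytes, was at 6.78, 6.53 and 5.95 against 5.79 to 8.30. In each of Il1b, Cxcl2 and Ccl2 the treated arrays ran from high in number 1 to low in number 3.

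**Figure D3:**
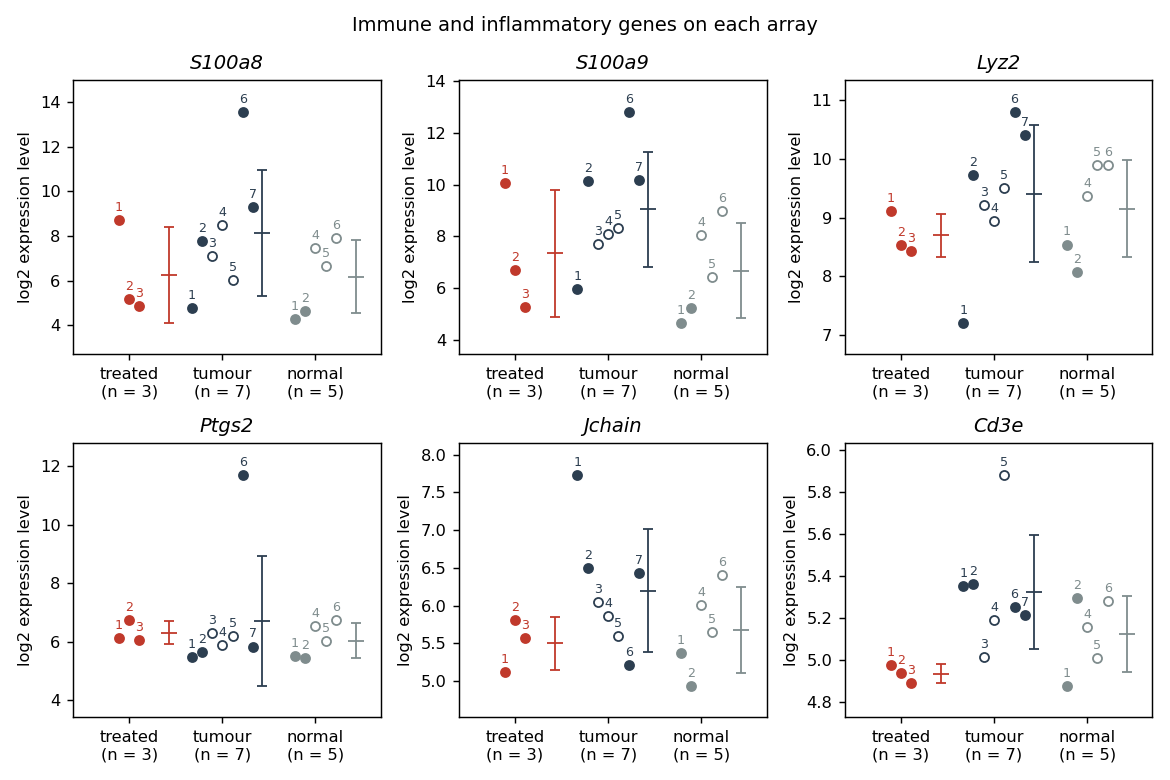
Level of 6 immune and inflammatory genes (vertical axis, log2 expression level) on each array of treated, tumour and normal bladders. Points carry replicate numbers, open symbols mark the arrays that stood apart, and the mean ± SD is beside each group. Tumour bladder 6 is the highest array for S100a8, S100a9, Lyz2 and Ptgs2, and Cd3e is the one panel in which treated and tumour bladders do not overlap.

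Lymphocyte genes were dim, and the medians of all rows on these arrays were 5.11 to 5.48. Dim genes as a whole were lower more often than others. The counts of lower members below thus look more one-sided beside the share of all genes than they would beside dim genes. With dim genes left out, the T and NK cell median was -0.11 and the B and plasma cell median -0.14. Cd3e, which carries the signal of the T cell receptor, was at 4.98, 4.94 and 4.89 in treated bladders and at 5.35, 5.36, 5.01, 5.19, 5.88, 5.25 and 5.22 in tumour bladders 1 to 7. The groups did not overlap, but the gap between treated bladder 1 and tumour bladder 3 was 0.04, and the difference was -0.39 ± 0.15 (SE). It was the only one of 22 measured T and NK cell genes without overlap. The coreceptor Cd8a was at 4.76, 4.77 and 4.66 against 4.65 to 5.11, and Cd4 at 5.03, 5.24 and 4.93 against 4.96 to 5.41. Of the 22 genes 21 were lower, with a median of -0.13, which was -0.07 with arrays centred and -0.03 without treated bladder 3. All 16 measured B and plasma cell genes were lower, with a median of -0.14 (-0.08 with arrays centred). Jchain, the joining chain of secreted antibodies, was at 5.12, 5.81 and 5.57 against 7.74 and 6.50 on tumour bladders 1 and 2, 6.43 on number 7 and 5.21 to 6.04 on the others. Mast cell genes were lower for 8 of 10, with a median of -0.05 that turned to 0.01 with arrays centred and was -0.09 without tumour bladders 3, 4 and 5. It was -0.20 without treated bladder 1 and -0.11 without tumour bladder 6, and turned without tumour bladder 7 (0.04) or treated bladder 3 (0.01).

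Interferon-induced genes were lower for 21 of 24 measured members, with a median of -0.15 that was -0.02 with array weights, -0.24 without treated bladder 1 and -0.08 without tumour bladder 6. Cxcl10, a chemokine that interferon induces, was at 4.90, 4.61 and 5.26 against 4.61 to 6.06, and its relative Cxcl9 at 4.56, 4.91 and 4.52 against 4.64 to 6.64, with tumour bladder 6 highest for both. Ifit1, an antiviral effector, had a higher mean in treated bladders instead, at 6.03, 5.64 and 5.85 against a tumour range of 5.01 to 6.91. Of 15 genes of antigen presentation 14 were lower (median -0.16). B2m, the light chain of class I molecules, was the exception, at 12.02, 11.24 and 14.70 against 9.61 to 14.05, and its difference of 0.47 turned to -0.55 without treated bladder 3. Among 20 checkpoint genes 16 were lower (median -0.09, and -0.03 with arrays centred or without treated bladder 3), with Cd274, the ligand PD-L1, at 5.03, 4.90 and 4.75 against 4.72 to 5.21, and Havcr2 (TIM-3) at 4.96, 5.18 and 5.18 against 4.99 to 5.73.

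Genes of energy supply and translation averaged higher in treated bladders 1 and 3 than in treated bladder 2. All 24 measured genes of oxidative phosphorylation had a higher mean in treated bladders, with a median of 0.16 and a list mean of 6.94, 6.35 and 6.93, against 6.07 to 7.02 in tumour bladders. The median was 0.32 without treated bladder 2, 0.06 without treated bladder 1, 0.10 without treated bladder 3 or tumour bladder 1, and 0.28 with array weights. Atp5b, of the ATP synthase, was at 7.71, 7.12 and 7.59 against 6.50 to 7.55, and Cox5a, of cytochrome oxidase, at 7.45, 5.89 and 7.56 against 5.64 to 7.70. All 9 measured ribosomal protein genes were higher, with a median of 0.16, which was 0.40 without treated bladder 2, 0.07 without treated bladder 3, 0.28 and 0.26 without tumour bladders 6 and 7, and 0.05 with renewed quantile normalisation. Of 22 glycolysis and hypoxia genes 15 were higher, with a median of 0.05 that turned to -0.09 without treated bladder 3, to -0.01 without tumour bladder 1, to -0.07 without tumour bladders 3, 4 and 5 and to -0.001 with quantile normalisation. Ldha, the lactate dehydrogenase, was at 7.39, 6.61 and 7.75 against 6.70 to 8.27, and Slc2a1, the glucose transporter, at 6.04, 5.60 and 7.17 against 5.71 to 7.68. Of 22 genes of receptor kinases and the PI3K pathway 18 were higher, with a median of 0.06 that turned to -0.03 without treated bladder 3 and was 0.03 without tumour bladders 3, 4 and 5, 0.14 without treated bladder 2, 0.12 without tumour bladder 6 and 0.01 without tumour bladder 1. Egfr, a growth factor receptor, was at 6.80, 6.70 and 6.67 against 6.05 to 8.14. Of 15 genes of xenobiotic metabolism 8 were higher (median 0.03, which turned to -0.10 without treated bladder 2 and to -0.05 without tumour bladder 6, and was 0.001 without tumour bladders 3, 4 and 5).

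Markers of tissue around the bladder differed between the treated arrays. Skeletal muscle genes averaged 8.16, 5.12 and 5.06 in treated bladders 1, 2 and 3, and 5.56 to 6.38 in tumour bladders, so that treated bladder 1 was above all tumour arrays and the other 2 were below all of them. Tnnt3, a troponin of fast fibres, was at 10.01, 5.41 and 5.19 against 5.88 to 8.28, and Myh4, a fast myosin, at 9.65, 4.71 and 4.60 against 5.27 to 7.20. All 20 genes had a higher mean in treated bladders, with a median of 0.41, which turned to -0.61 without treated bladder 1, and was 0.94 and 0.97 without treated bladders 2 and 3, 0.22 without tumour bladders 3, 4 and 5 and 1.97 with array weights. Adipocyte genes averaged 6.19, 6.54 and 5.58 against 5.63 to 5.95, with 12 of 15 higher and a median of 0.27, which was 0.08 without treated bladder 2 and 0.45 without treated bladder 3. Fabp4, a fatty acid carrier, was at 9.50, 10.37 and 8.72 against 8.33 to 10.56, and Adipoq, the hormone adiponectin, at 6.62, 6.59 and 5.40 against 5.23 to 6.15. Genes of the male accessory glands were lower for 16 of 17 (median -0.18, -0.12 without tumour bladder 1 and -0.04 without treated bladder 3), with Svs5, a seminal vesicle protein, at 5.44, 5.04 and 4.71 against 5.08 to 5.77. For nerve (median -0.04 over 13 genes), mesothelium (-0.0001 over 9) and liver and kidney (-0.05 over 13) the sign turned with 1 array left out and with arrays centred. Without tumour bladders 3, 4 and 5 the medians were -0.06, 0.04 and -0.01, and with array weights -0.02, -0.16 and 0.06. The part of admixed tissue in the other differences was not tested.

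**Figure D4:**
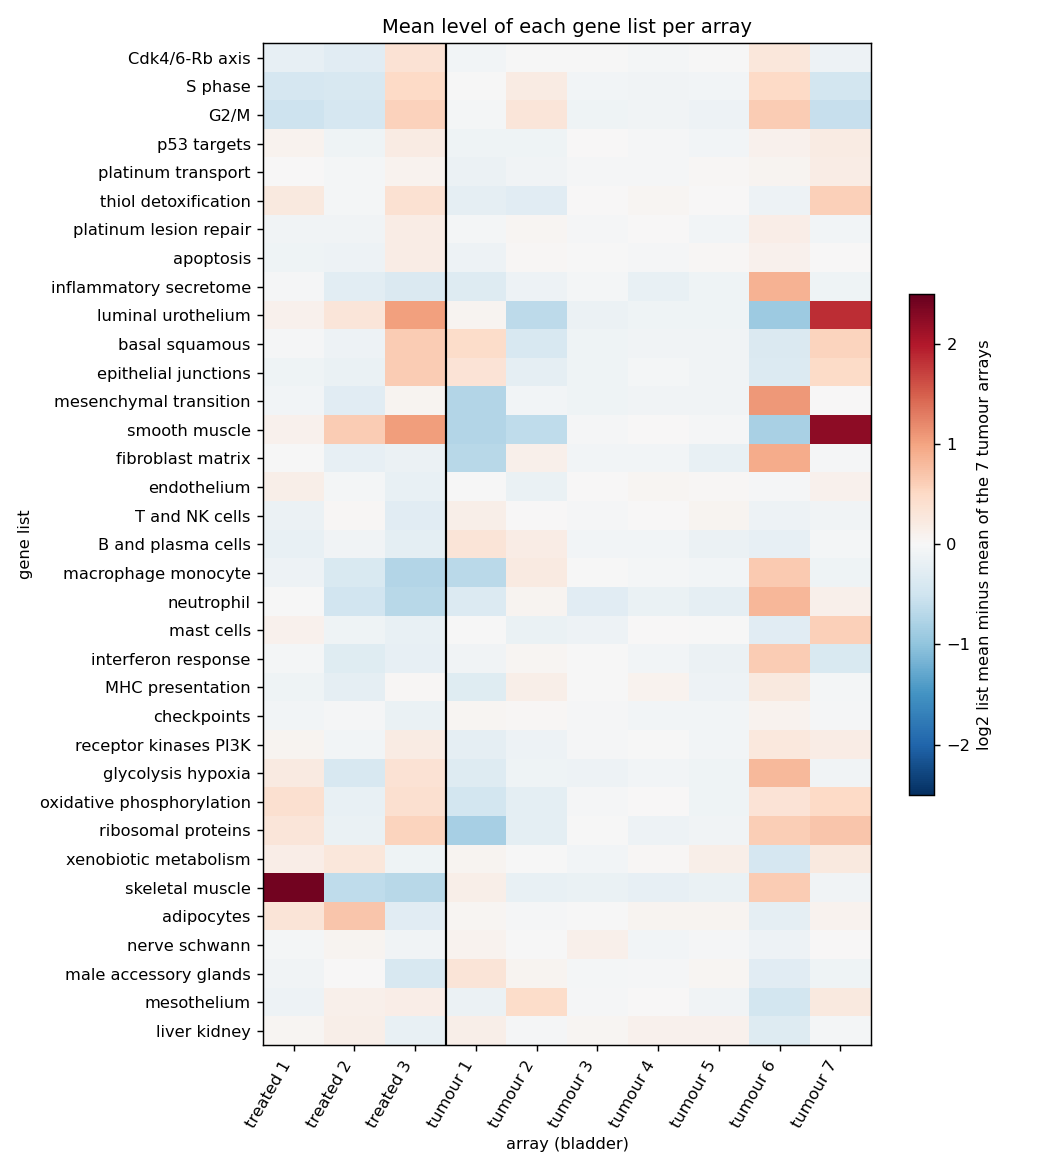
Mean level of each of 35 gene lists (rows) on the 3 treated and 7 tumour arrays (columns), coloured by the log2 list mean minus the mean of the 7 tumour arrays. In the S-phase list treated bladder 3 (6.43) is as high as tumour bladder 6 (6.44), in the smooth muscle list it lies (7.72) under tumour bladder 7 (8.92), and treated bladder 1 (8.16) is darkest in the skeletal muscle row.

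Over the 35 lists the median kept its sign with each of the 10 arrays left out in turn for 16 lists and turned at least once for 19. Those that kept it on the higher side were the thiol, luminal, smooth muscle, oxidative phosphorylation, ribosomal and adipocyte lists. Those on the lower side were the inflammatory, fibroblast, T and NK cell, B and plasma cell, macrophage, neutrophil, interferon, antigen presentation, checkpoint and male accessory gland lists. None of the 35 lists held a member that passed the test.

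**Figure D5:**
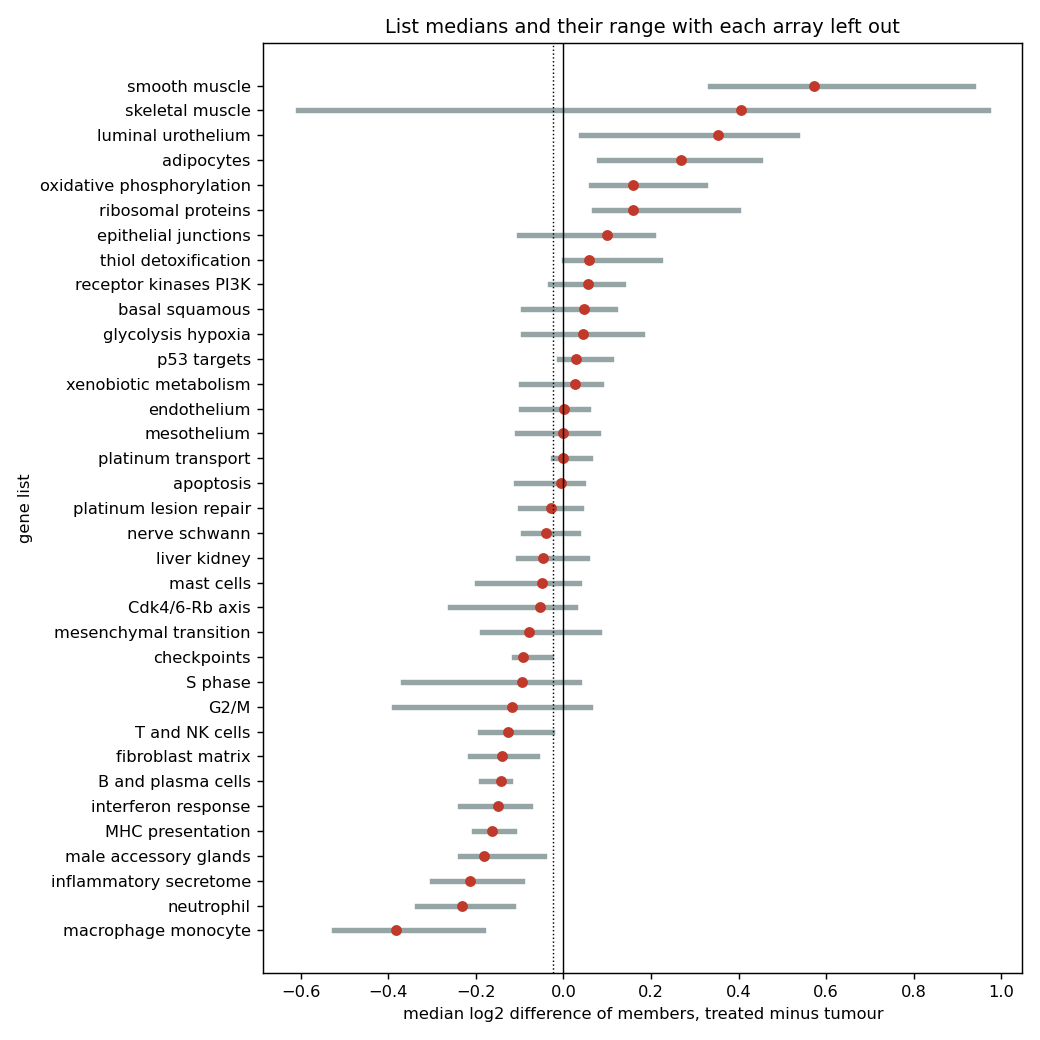
Median log2 difference of the measured members of each list, treated minus tumour bladders (dots, horizontal axis), with the range of the median when each of the 10 arrays is left out in turn (grey bars); the dotted line is the median of all 30142 genes, -0.02, and the solid line is 0. The smooth muscle median of 0.57 is the highest and the macrophage median of -0.38 the lowest, and the widest bar, from -0.61 to 0.97, is that of skeletal muscle.

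Of the 39 genes without overlap between the groups, 16 could be named by the rule used, which leaves out predicted genes, pseudogenes and small RNAs. Rpl41, a short ribosomal protein, was at 15.43, 15.38 and 15.46 in treated bladders and at 14.91, 15.07, 14.03, 14.05, 13.91, 15.09 and 15.09 in tumour bladders 1 to 7, a difference of 0.83 ± 0.36 (SE) with a gap of 0.29, the widest of the 16. Eef1a1, the elongation factor that brings aminoacyl-tRNA to the ribosome, was at 12.94, 12.88 and 13.06 against 11.70 to 12.83. Rpph1, the RNA of ribonuclease P, was at 11.98, 11.93 and 12.28 against 10.47 to 11.86. Some arrays shared a level of these bright genes to the 6th decimal: 5 arrays held Rpph1 at 11.8216, tumour bladders 6 and 7 and normal bladders 1 and 2 among them, and 4 held Eef1a1 at 12.8293, tumour bladder 7 and normal bladders 1 and 2 among them, with tumour bladder 6 next to it at 12.8296. Rpl41 was at 15.0849 on 3 arrays, normal bladders 1 and 2 and metastasis 1, and tumour bladders 6 and 7 lay near that level at 15.09. The cause was not tested. Mdm4, an inhibitor of p53, was at 6.33, 6.34 and 6.30, where tumour bladders ran from 5.76 to 6.29, and the gap was 0.01. Thra, a thyroid hormone receptor, was at 5.93, 5.87 and 5.83 against 5.72 to 5.82, Slc2a8, a glucose transporter, at 5.29, 5.32 and 5.30 against 5.16 to 5.28, and Zcchc4 at 5.82, 5.81 and 6.01 against 5.61 to 5.79.

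The 9 lower genes without overlap had gaps of 0.05 or less. They were Cd3e (above), Ropn1l, Slc26a4, B4galnt1, Etv5, Enox1, Ptger2, Sh2d3c and Bbs7. Ropn1l, a protein of the sperm tail and cilia, was at 4.69, 4.5 and 4.77 against 4.79 to 5.02. Etv5, an ETS factor induced by growth factor signalling, was at 5.51, 5.5 and 5.46 against 5.55 to 5.85, and Ptger2, a receptor of prostaglandin E2, at 4.90 on each treated array against 4.92 to 5.15. The smallest unadjusted limma p among higher genes that were not already described belonged to Naca, a chaperone of nascent chains, at 8.32, 7.81 and 8.24 against 6.99 to 8.09, and to the deacetylase Sirt1, at 6.35, 6.23 and 6.51 against 5.86 to 6.36. Fam189a2 (5.84, 5.79 and 6.31 against 5.02 to 5.98) and Ak3, a mitochondrial adenylate kinase (6.99, 6.55 and 7.38 against 5.71 to 7.68), came next. Among lower genes, BC051076 was at 4.34, 4.25 and 4.01 against 4.01 to 5.29, Tram1l1 at 3.79, 4.13 and 3.85 against 4.02 to 4.57 and the beta-defensin Defb5 at 6.61, 6.09 and 5.35 against 6.06 to 6.88.

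Large differences also lay among the 3 treated bladders. Among genes with a mean of at least 7 over the treated bladders, those in which treated bladder 1 was farthest above the other 2 were Tnnc2, a troponin of fast muscle, by 4.78 (10.31 against 5.54 and 5.51), Trdn, a protein of the muscle calcium store, by 4.13, and S100a9, by 4.05. For treated bladder 2 they were the mitochondrial gene ND6, by 1.73 (12.51 against 11.73 and 9.84), Pcp4, a calmodulin regulator among the smooth muscle genes, by 1.43, and Fabp4, by 1.26. For treated bladder 3 they were Sprr2b, a cornified envelope protein, by 4.21 (11.86 against 7.47 and 7.83), Ivl (involucrin), of the same structure, by 4.06 (12.47 against 8.68 and 8.14), and Hnrnpa3, a splicing protein, by 3.71 (12.48 against 8.72 and 8.81). In tumour bladders Ivl was highest on number 7, at 13.34, and at 10.05 or below on the others. Over 5317 bright rows the deviations of treated bladders 2 and 3 from the row means correlated at r = -0.592, those of treated bladders 1 and 2 at -0.123 and those of 1 and 3 at 0.052, which is across rows of the same arrays and not across replicates.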

How the data were processed

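RNA of 20 samples was measured on Affymetrix whole-transcript arrays, of which the 3 treated and 7 tumour bladders are compared here. The deposited values are log2 expression levels that the authors made with RMA in Affymetrix Expression Console, per the submitters' processing notes. No version and no log base are stated, and base 2 is assumed. The values ran from 2.162 to 22.004, and 96 to 222 of the 65956 rows on each array lay above 16, the range of a 16-bit scanner, so the brightest levels are not plain log2 intensities. The number of arrays limits the precision. Of the rows, 30604 carried 1 gene symbol in the platform annotation, 2146 several and 33206 none; 827 symbols were updated through RefSeq, and each of 355 genes with several rows was represented by 1 row, which left 30142 genes. Some genes are not reported here.

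Groups were compared with limma 3.58.1 in R 4.3.3 (lmFit and eBayes over all groups, treated minus tumour bladders, Benjamini-Hochberg adjustment over all genes, threshold 0.05). On simulated data for this comparison with 30142 genes, 96 of 100 genes with a log2 change of 2 and 68 of 100 with a change of -1 were recovered, with 11 false calls. The simulated noise was normal, independent between arrays and equally wide on each. The real arrays include some that stood apart and some with outlying levels, so these shares check the code and do not give the power in these data. Named genes were the marked members of the lists, up to 10 genes per direction without overlap, the 5 smallest p per direction, and the 3 genes each treated bladder held farthest above the other 2 among genes averaging at least 7, without predicted, repertoire and small RNA genes in the last 3 parts. Rb1, Rbl1 and Rbl2 were named for the genotype, and mitochondrial and Sprr genes after their values were seen. The gene lists and the genes to be compared were chosen with earlier results of these data known. Alternatives were array weights, a fit on the 10 arrays, a trended robust prior, leaving out dim genes (mean under the 40th percentile), quantile normalisation, centring on medians, other rules for rows, a replicate block and leaving out arrays. Promoter windows came from RefSeq (GRCm38.p6).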

Additional observations from a re-analysis of the deposited data

Results flagged for a closer look

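Within the 7 tumour bladders, 50 of 211 list means and named genes (23.7%) had a single array whose gap to the nearest other array, over the whole range, exceeded the critical value of Dixon's test for 7 samples, where chance gives about 1 in 20. The 211 items are not independent, since list means stand beside their own members on the same 7 arrays, so the excess over 1 in 20 cannot be sized. Most of the 50 flags fell on 2 arrays: 27 on tumour bladder 6 and 19 on tumour bladder 7. The 3 treated bladders are too few for this test.

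Tumour bladder 6 stood above the other tumour bladders in the mean log2 level of these lists: Cdk4/6 and Rb axis at 6.14, inflammatory at 6.85, mesenchymal transition at 7.57, neutrophil at 6.77, interferon at 6.50, glycolysis and hypoxia at 7.39 and skeletal muscle at 6.38. It stood below them for the adipocyte list at 5.63 and the liver and kidney list at 4.72. Its single genes were Pcna at 9.23, Cdk1 at 6.19, Birc5 at 5.59, Il1b at 7.60, Il6 at 6.13, Cxcl1 at 5.92, Ptgs2 at 11.71, Zeb1 at 8.48, Postn at 12.59, Csf3r at 6.95, Cxcr2 at 7.37, Cxcl9 at 6.64, Tap1 at 6.56, Slc2a1 at 7.68, Ldha at 8.27, Myh4 at 7.21, Tnnt3 at 8.28 and Tnnc2 at 8.13.

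Tumour bladder 7 stood above the others in these list means: thiol at 6.83, luminal at 8.10, smooth muscle at 8.92 and mast cell at 5.91. Its single genes were Upk1a at 14.18, Upk2 at 9.55, Upk3a at 12.38, Acta2 at 12.16, Actg2 at 11.55, Myh11 at 11.63, Cnn1 at 9.33, Des at 8.44, Cpa3 at 6.93, Cma1 at 6.19, Acta1 at 9.23, Ckm at 7.57, Fabp4 at 10.56, Ak3 at 7.68 and Pcp4 at 9.92.

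The remaining genes were Dsg3 at 6.32 and Svs5 at 5.77 on tumour bladder 1, Enox1 at 5.79 on tumour bladder 2 and Cd3e at 5.88 on tumour bladder 5.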

How the results depend on the processing

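No gene passed an adjusted p of 0.05 under any alternative run; the smallest adjusted p was 0.295, with array weights. Against 103 genes at an unadjusted p under 0.05, there were 2511 with array weights, 65 without dim genes, 38 without tumour bladders 3, 4 and 5, and 91 to 443 with 1 array left out. Against 39 genes without overlap, there were 19 after quantile normalisation, 189 without tumour bladders 3, 4 and 5 or without all 8 such arrays, and 58 to 552 with 1 array left out; fewer arrays leave fewer values that can overlap. With the replicate number as a block on the 6 arrays numbered 1 to 3, 2021 genes had an unadjusted p under 0.05 and 3284 did not overlap, and without the block on the same arrays 1677 and 3284. The numbers pair no samples by the labels: the deviations of same-numbered arrays correlated at -0.296, 0.52 and 0.026 over 2624 genes. The median of 35 lists moved by more than the SD of the list mean over the 7 tumour arrays in 14 of 770 recomputed values. It turned its sign in 90, within 19 lists. That SD was wide where a tumour array stood out, so the 14 is no measure of stability. For smooth muscle it was 1.05, and the fall of the median from 0.57 to 0.02 with array weights was not counted as a move. Of 176 named genes, 94 turned their sign under at least 1 alternative. The comparison has 3 treated arrays, which limits what it can show.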

Other observations

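Genes of the mitochondrial genome, chosen after their values were seen, had a higher mean in treated bladders for all 5 measured genes (ND2, COX1, COX2, ND3 and ND6), with a median difference of 1.10 and a range of 0.70 to 1.79. Their mean log2 level was 13.16, 13.23 and 12.43 in treated bladders 1, 2 and 3, and 10.72, 11.09, 11.64, 12.12, 11.92, 11.91 and 13.57 in tumour bladders 1 to 7. All treated arrays lay above 6 of the tumour arrays and below tumour bladder 7, as they did for Upk1b. Tumour bladders 3, 4 and 5, which stood apart, are among those 6. Normal bladders 1 and 2 were both at 13.07, and normal bladders 4, 5 and 6, which are among the arrays that stood apart, at 11.81, 12.27 and 11.36, below every treated array.

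The Sprr family, which encodes small proteins of the cornified envelope and was also chosen after its values were seen, had 10 of 12 measured members with a higher mean in treated bladders. The median difference was 0.14 and the range -0.20 to 1.5.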
